A study of Panonychus citri with 4 samples.

Results

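The adult and larva libraries of the citrus red mite, Panonychus citri, were compared for all known microRNAs (miRNAs) listed in either of them. They are 2 of the 4 stage libraries of the series, which also holds a nymph and an embryo library. The adult library came from a pool of more than 1000 whole adults and the larva library from a pool of more than 2500 whole larvae, and RNAs of 18 to 30 nucleotides were taken from both. Each stage had 1 library, so the values compare these libraries, with no replicate check of the stages and no p-values. The labels name the stage and the whole body as tissue. They say nothing of the sex, strain, age or host plant of the animals, and no treatment is named for either stage. The authors listed 386 miRNA names over both libraries, of 594 in the whole series. Length variants of a miRNA family were summed where 17 or more bases of their sequences overlapped with no mismatch, which gave 276 sequence groups. Each group was called by its name with most reads over the 4 libraries of the series, which need not lead in the adult or larva. Of these, 79 groups had at least 30 reads over both libraries and were tested.

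Spider mites hatch from the egg as larvae, pass through nymph stages with a moult between each, and become reproducing adults. miRNAs are short RNAs cut from hairpin precursors. Bases 2 to 8 of the mature strand, the seed, pair with messenger RNAs and lower their output, so that miRNAs with the same seed can share targets. Many miRNAs of arthropods are conserved and linked to a tissue or a process, such as muscle, neurons, sense organs, the germline or growth. The roles named below are known from Drosophila unless another animal is named.

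The groups that differed on both scales used here are shown first, as the leading name of each, 5′ to 3′ with the seed in capitals. Higher in the adult library were:
miR-8-3p: tAATACTGtcaggtaaagatgtc
miR-252-5p: cTAAGTAGtagtgccgcag
miR-317: tGAACACAgctggtggtatctca
miR-1175b-3p: tGAGATTCaactcctccaact
miR-745-3p: cAGCTGCCcagtgaagggctgt
Lower in the adult library were:
miR-92-3p: tATTGCACtcgtcccggcct
miR-315: tTTTGATTgttgctcagaaggcg
miR-263b: cTTGGCACtggaagaattca
miR-263-5p: tATGGCACtggaagaattcacgg
miR-278-3p: tCGGTGGGattttcgtccgtct
miR-10-3p: gAATTCGGctctagagaggttt
miR-184: tGGACGGAgaactgataagggc
The groups that held most reads beside them were:
miR-1: tGGAATGTaaagaagtatggag
miR-34-5p: tGGCAGTGtggttagctggtt
miR-5735-3p: tGGACAACaggataatggcg
The leading names of the 12 groups that differed on both scales had 12 different seeds. The seed shown for miR-278-3p is not that of most of its adult reads, which had a shifted seed. The seed of miR-92-3p, ATTGCAC, was shared by miR-92f-3p and miR-25, and these 3 groups together had 99 adult and 1588 larva reads.

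The adult library listed 270 names with 438409 reads and the larva library 273 names with 1012278 reads. The library totals implied by the authors' normalized values were nearly the same, 5918115 in the adult and 5941043 in the larva, so that listed miRNAs made up 7.41% of the adult total and 17.04% of the larva total. Values were therefore given on 2 scales. Listed RPM is reads per 1000000 listed miRNA reads, and library RPM is reads per 1000000 of the library total. Every adult over larva ratio in library RPM is 0.435 times that in listed RPM, a shift of -1.20 in log2. A group was called higher or lower when its whole 95% interval lay beyond 2-fold. The intervals are exact Clopper-Pearson intervals. They cover counting error only, because 1 library per stage leaves no replicate error. Reads copied by PCR do not each stand for a molecule of their own, so the intervals can be too narrow even for counting error. A sequence group with no row in a library was given a bound of 3 reads there, which is 6.84 listed RPM in the adult and 2.96 in the larva. The bound does not hold for single names, which could lack a row where another variant of their group was listed. In whole-animal pools, fewer cells of a type and less of a miRNA per cell cannot be told apart.

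Among the most abundant groups, miR-34-5p held a larger share of adult than of larva reads and miR-184 a smaller one. The miR-1 group, a muscle miRNA, led both, with 47.1% of listed reads in the adult (46.9 to 47.2) and 50.1% in the larva (50.05 to 50.2). The miR-34-5p group, linked to ageing of the nervous system, was second in the adult with 17.5% (17.4 to 17.6) and ranked 5 in the larva with 3.78% (3.74 to 3.82). The miR-184 group, which acts in the female germline, ranked 4 in the adult with 9.19% (9.11 to 9.28) and 2 in the larva with 19.1% (19.03 to 19.2). The miR-5735-3p group ranked 3 in both, with 10.7% in the adult and 11.3% in the larva. The groups that led the larva, miR-1, miR-184 and miR-5735-3p, together held 67.0% of adult and 80.5% of larva reads, while miR-34-5p and miR-317 together held 20.5% of adult and 4.40% of larva reads. miRNAs linked to muscle (miR-1, miR-133), neurons (miR-124-3p) and the female germline (miR-184) were listed in both libraries. Their listing does not measure how much of these tissues a library held. Names of plant type numbered 0, but all listed names had the animal form, so this count does not test for plant RNA.

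**Figure D1:**
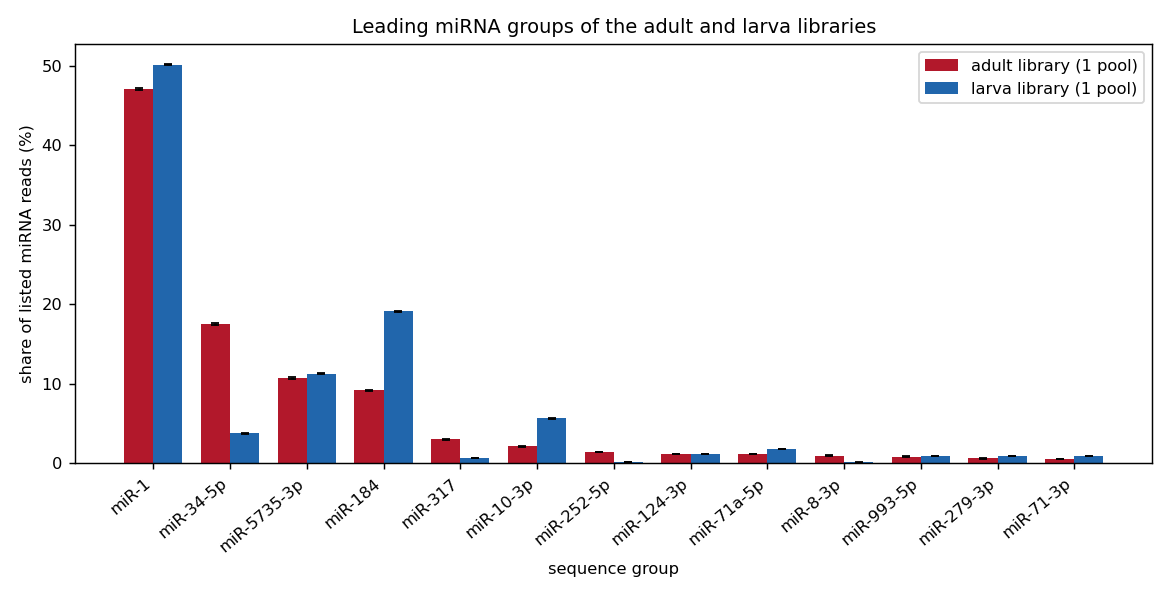
Share of listed miRNA reads in percent for the 13 groups among the 10 most abundant of either library, with adult bars left of larva bars and 95% counting intervals. miR-34-5p stands at 17.5% in the adult and 3.78% in the larva, and miR-184 at 9.19% in the adult and 19.1% in the larva.

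Among the 79 tested groups, 22 were called higher in the adult (27.8%) and 7 lower (8.86%) in listed RPM, against 5 higher (6.33%) and 20 lower (25.3%) in library RPM. Most groups called on 1 of these scales were not called on the other. On both scales 5 groups were higher (6.33%) and 7 lower (8.86%), and these 12 also kept their call with TMM and median-of-ratios scaling and with miR-1, or the let-7 and vertebrate-type names, left out of the totals. With TMM scaling 7 groups were higher (8.86%) and 16 lower (20.3%), with median-of-ratios scaling 6 were higher (7.59%) and 19 lower (24.1%), and of 100 single names tested in listed RPM 29 were higher (29.0%) and 15 lower (15.0%). In library RPM 12 of these names were higher (12.0%) and 31 lower (31.0%). No group was called in opposite directions in listed and library RPM. The 5 groups higher on both scales held 5.45% of adult and 0.887% of larva reads, and the 7 lower groups 11.7% of adult and 26.2% of larva reads.

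The vertebrate-type and let-7 names had about the same level per library total in both libraries. Vertebrate-type names are those of families taken as known from vertebrates and not from arthropods. They had 1485 adult and 1476 larva reads, or 250.9 library RPM in the adult and 248.4 in the larva. The let-7 names, of a family that times development in many animals, had 2216 adult and 2136 larva reads, or 374.4 library RPM in the adult and 359.5 in the larva. The adult over larva ratio of the vertebrate-type names was 1.01 (0.939 to 1.09) in library RPM and 2.32 (2.16 to 2.5) in listed RPM. That of the let-7 names was 1.04 (0.981 to 1.11) in library RPM and 2.40 (2.26 to 2.54) in listed RPM. Of the 22 groups higher in listed RPM, 6 were vertebrate-type (27.3% of 22 tested) and 4 were let-7 groups (50.0% of 8 tested), and 0 of these 10 were called in library RPM, where the let-7 groups had ratios of 0.763 to 1.19. Where these reads came from was not tested. Without these classes 49 groups were left, of which 12 were higher (24.5%) and 7 lower (14.3%) in listed RPM, and 5 higher (10.2%) and 20 lower (40.8%) in library RPM. Their median ratio was 1.25 in listed RPM and 0.546 in library RPM.

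**Figure D2:**
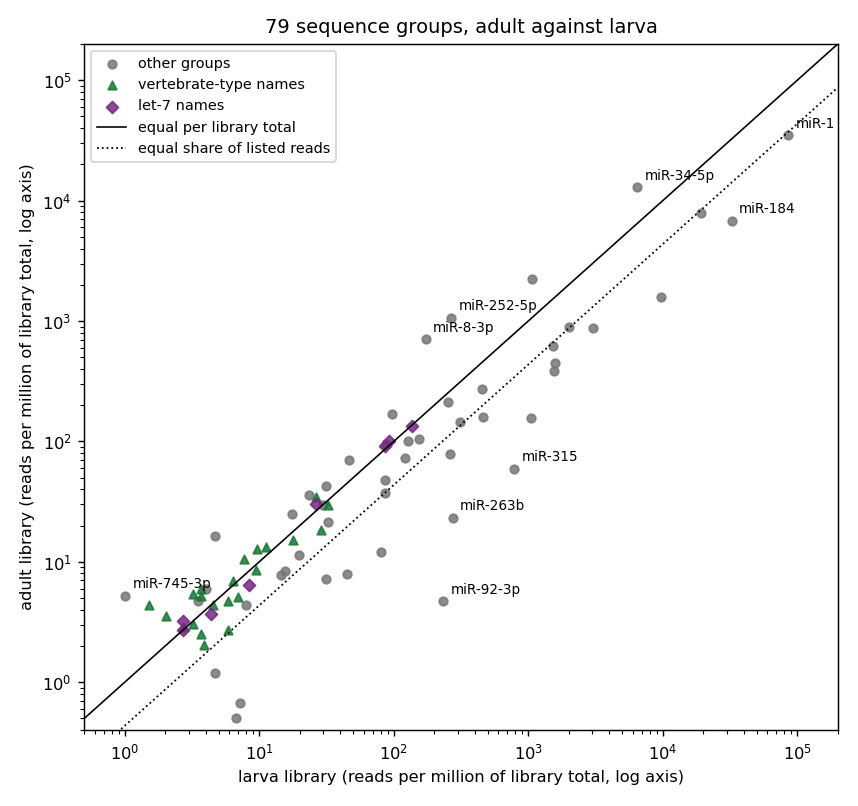
Adult against larva level of the 79 tested groups in reads per 1000000 of the library total, both axes logarithmic, with lines for an equal level per library total and for an equal share of listed reads. Vertebrate-type and let-7 names lie along the line of equal level per library total, miR-1 lies near the line of equal share, and miR-8-3p and miR-252-5p lie above both lines while miR-315, miR-263b and miR-92-3p lie below both.

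miR-8-3p and miR-252-5p rose on both scales, each by about the same factor. miR-8-3p, which promotes growth through the insulin pathway in the fat body, had 4208 adult and 1025 larva reads, or 9598 listed RPM in the adult and 1013 in the larva. It was 9.48-fold higher in the adult in listed RPM (8.85 to 10.2) and 4.12-fold higher in library RPM (3.85 to 4.42), and it ranked 10 in the adult and 22 in the larva. The miR-252-5p group had 6308 adult and 1596 larva reads, or 14388 listed RPM in the adult and 1577 in the larva. It was 9.13-fold higher in listed RPM (8.64 to 9.65) and 3.97-fold in library RPM (3.76 to 4.19), and ranked 7 in the adult and 18 in the larva. The libraries listed different variants of it, the adult 6288 reads of 19 nucleotides and the larva 1586 reads of 21 that start at the same base:
miR-252-5p: cTAAGTAGtagtgccgcag
miR-252b-5p: cTAAGTAGtagtgccgcaggt
The name miR-252, which starts 1 base later and was listed in both libraries, had 20 adult and 10 larva reads, a ratio of 4.62 (2.06 to 11.0) in listed RPM. Its ratio in library RPM is 0.435 times this, with an interval that covers 1, so this name alone has no call there. The related miR-252c-5p, with another seed, had 285 adult and 514 larva reads and ratios of 1.28 (1.10 to 1.48) in listed RPM and 0.557 (0.480 to 0.645) in library RPM. The ratio of miR-252-5p to miR-252c-5p reads, which does not depend on the scale, was 22.1 in the adult and 3.11 in the larva.

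The groups miR-317 and miR-34-5p, which lie in the same genomic cluster in Drosophila, were higher by similar factors. miR-317 had 13231 adult and 6323 larva reads and was 4.83-fold higher in listed RPM (4.69 to 4.98) and 2.10-fold in library RPM (2.04 to 2.16). miR-34-5p had 76683 adult and 38263 larva reads and was 4.63-fold higher in listed RPM (4.57 to 4.68), but its 2.01-fold ratio in library RPM (1.99 to 2.04) did not lie wholly past 2-fold. The miR-34-5p to miR-317 ratio was 5.80 in the adult and 6.05 in the larva, an odds ratio of 0.958 (0.927 to 0.989). The other groups higher on both scales were rare. miR-1175b-3p, of a cluster with miR-750 in insects, had 97 adult and 28 larva reads (8.0-fold in listed RPM, 5.21 to 12.7, and 3.48-fold in library RPM, 2.26 to 5.50). miR-745-3p had 31 adult and 6 larva reads (11.9-fold in listed RPM, 4.90 to 35.0, and 5.19-fold in library RPM, 2.13 to 15.2), so its fold was the least certain.

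A further 7 groups outside the let-7 and vertebrate-type classes were called higher in listed RPM alone. Beside miR-34-5p these were miR-281-5p, miR-305c-5p, miR-210-3p, miR-716b, miR-12 and miR-133. miR-281-5p, abundant in the mosquito midgut, had 1008 adult and 580 larva reads, with ratios of 4.01 (3.62 to 4.45) in listed RPM and 1.74 (1.57 to 1.94) in library RPM. miR-305c-5p, which acts in intestinal stem cells, had 211 adult and 139 larva reads, with ratios of 3.50 (2.82 to 4.37) and 1.52 (1.22 to 1.90). The photoreceptor-linked miR-210-3p had 413 adult and 277 larva reads, with ratios of 3.44 (2.95 to 4.02) and 1.5 (1.28 to 1.75). miR-12 had ratios of 3.12 (2.57 to 3.79) in listed RPM and 1.36 (1.12 to 1.65) in library RPM. Its 21-nucleotide name alone, with 250 adult and 69 larva reads, had ratios of 8.37 (6.38 to 11.1) in listed RPM and 3.64 (2.78 to 4.82) in library RPM, a call on both scales, because the 22-nucleotide name with 116 larva reads was not listed in the adult. miR-716b had ratios of 3.26 (2.52 to 4.24) in listed RPM and 1.42 in library RPM. miR-133, a muscle miRNA in vertebrates, had 560 adult and 519 larva reads, with ratios of 2.49 (2.21 to 2.81) and 1.08 (0.960 to 1.22), whereas miR-1 stood at 0.938 (0.934 to 0.943) and 0.408 (0.406 to 0.410). The odds of miR-133 against miR-1 were 2.65 times as high in the adult (2.35 to 3.0), on either scale. The growth promoter bantam had 1259 adult and 1500 larva reads, with ratios of 1.94 (1.80 to 2.09) in listed RPM and 0.843 (0.781 to 0.909) in library RPM, and was called in neither. The odds of miR-8-3p against bantam were 4.89 times as high in the adult (4.41 to 5.42).

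Among the 79 tested groups the lowest ratio was that of miR-92-3p, of a family that acts in neural stem cells. It had 28 adult and 1382 larva reads, or 63.9 listed RPM in the adult and 1365 in the larva, and was 21.4-fold lower in the adult in listed RPM (14.7 to 32.3) and 49.2-fold lower in library RPM (33.9 to 74.3). Its relative miR-92f-3p had 43 adult and 185 larva reads, with ratios of 0.537 (0.376 to 0.751) in listed RPM, not a call, and 0.233 (0.163 to 0.327) in library RPM, so that the odds of miR-92-3p against miR-92f-3p were 11.4-fold lower in the adult (6.76 to 19.6). miR-315, which activates Wingless signalling when overexpressed, had 352 adult and 4659 larva reads and was 5.73-fold lower in listed RPM (5.14 to 6.41) and 13.2-fold in library RPM (11.8 to 14.7). The embryo library held 49458 reads of miR-92-3p and 79795 of miR-315.

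Both miR-263 groups, which protect sensory bristle cells from death, were lower in the adult. miR-263-5p had 918 adult and 6243 larva reads and was 2.95-fold lower in listed RPM (2.75 to 3.16) and 6.77-fold in library RPM (6.32 to 7.27). miR-263b had 138 adult and 1632 larva reads and was 5.12-fold lower in listed RPM (4.30 to 6.14) and 11.8-fold in library RPM (9.90 to 14.1). The larva reads of this group were mostly a 22-nucleotide form, miR-263d-5p, which had 1098 of them and was not listed in the adult. The 20-nucleotide name miR-263b alone, with 138 adult and 534 larva reads, had a ratio of 0.597 (0.491 to 0.721) in listed RPM, which was not a call. The opposite arm of the miR-263b hairpin, miR-263b-3p, had 3 adult and 40 larva reads, with ratios of 0.173 (0.0343 to 0.544) in listed RPM and 0.0753 (0.0149 to 0.236) in library RPM.

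Of the other groups lower on both scales, miR-10-3p and miR-184 were abundant and miR-278-3p was not. miR-10-3p, from the Hox gene cluster, had 9341 adult and 57288 larva reads and was 2.66-fold lower in listed RPM (2.60 to 2.72) and 6.11-fold in library RPM (5.98 to 6.25). Its hairpin partner miR-10-5p had 47 adult and 267 larva reads and a similar ratio of 0.406 (0.292 to 0.556) in listed RPM. The miR-184 group had 40296 adult and 193431 larva reads and was 2.08-fold lower in listed RPM (2.06 to 2.10), just past the threshold, and 4.78-fold in library RPM (4.73 to 4.83). Its opposite arm, miR-184-5p, had 4 adult and 43 larva reads and a ratio of 0.215 (0.0560 to 0.591) in listed RPM. miR-278-3p, a miRNA of energy homeostasis, had 71 adult and 480 larva reads and was 2.93-fold lower in listed RPM (2.28 to 3.81) and 6.73-fold in library RPM (5.24 to 8.77). Its adult reads were nearly all of a variant that starts 1 base upstream and so has a shifted seed, with 69 adult reads and no larva row, while the larva listed 460 reads of the leading name and no adult row matched it:
miR-278b-3p: aTCGGTGGgattttcgtc
miR-278-3p: tCGGTGGGattttcgtccgtct

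**Figure D3:**
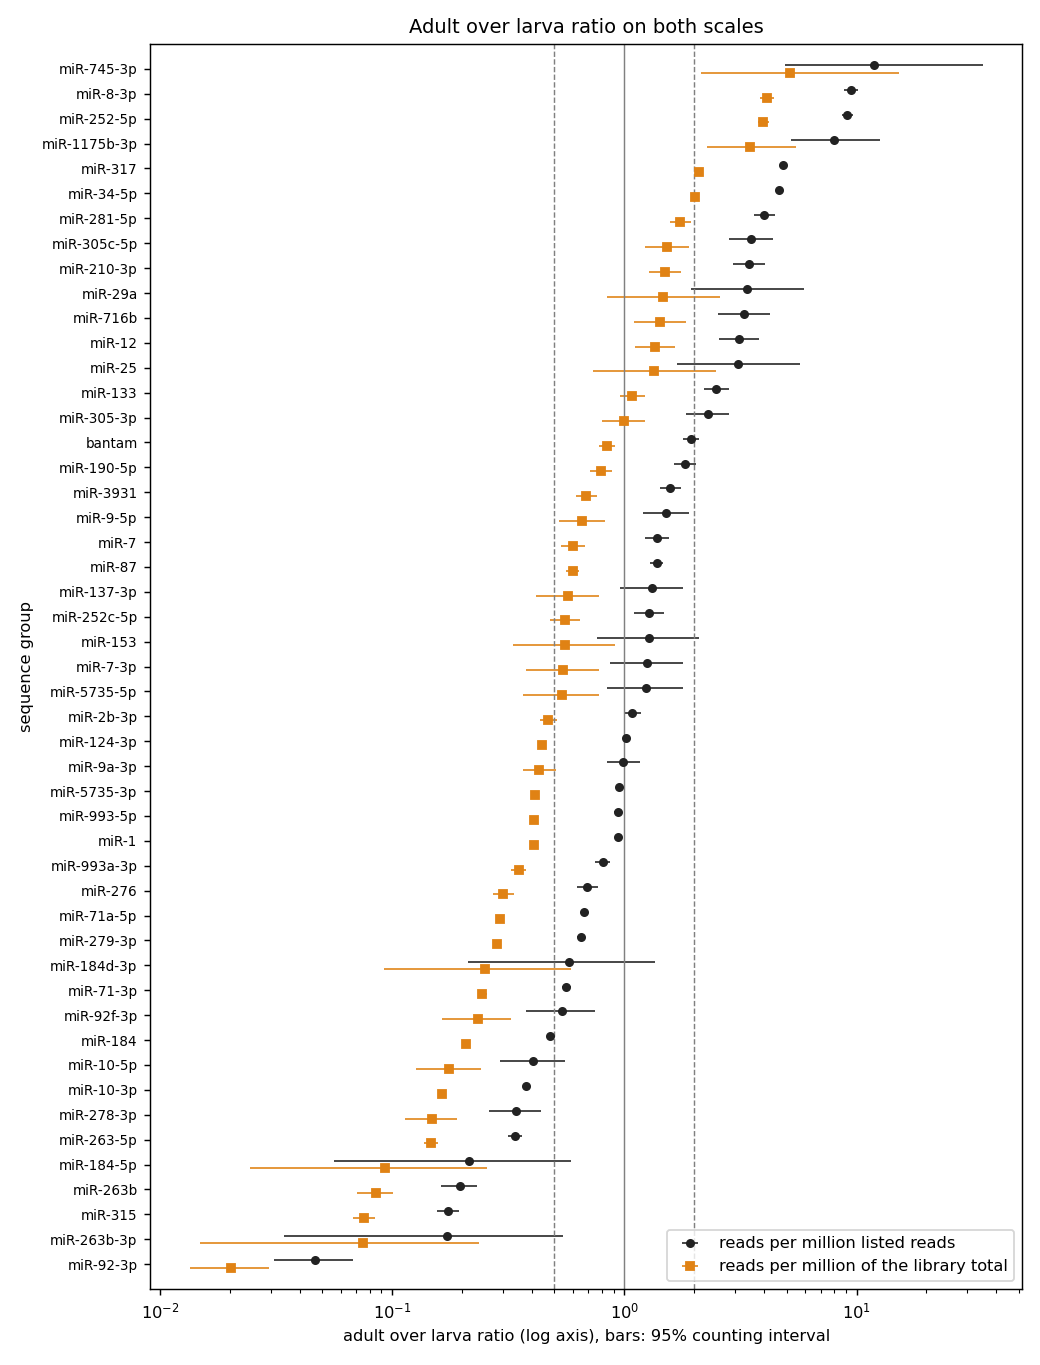
Adult over larva ratio on a log axis, with 95% counting intervals, for the 49 tested groups outside the let-7 and vertebrate-type classes, as reads per 1000000 listed reads (circles) and per 1000000 of the library total (squares). The dashed lines mark 2-fold. miR-745-3p, miR-8-3p, miR-252-5p, miR-1175b-3p and miR-317 stay right of 2-fold on both scales and 7 groups from miR-184 to miR-92-3p stay left of it.

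A further 13 groups were lower in library RPM alone, among them miR-1 and miR-5735-3p, which ranked 1 and 3 in both libraries. miR-1 (ratio 0.408), miR-5735-3p (0.413, 0.409 to 0.418), miR-993-5p (0.409, 0.394 to 0.425) and miR-124-3p (0.444, 0.429 to 0.458) were called lower there, and their listed RPM ratios lay between 0.938 and 1.02. miR-71a-5p, whose family lengthens life in Caenorhabditis elegans, had 5193 adult and 17911 larva reads, with ratios of 0.669 (0.649 to 0.690) in listed RPM and 0.291 (0.282 to 0.300) in library RPM. Its opposite arm miR-71-3p stood at 0.563 (0.538 to 0.590) and 0.245 (0.234 to 0.256). miR-279-3p, which acts in sensory neurons, had ratios of 0.651 (0.623 to 0.679) and 0.283 (0.271 to 0.295), and miR-276, which acts in olfactory memory, 0.694 (0.625 to 0.770) and 0.302 (0.272 to 0.335). The remaining 5 were miR-993a-3p, miR-92f-3p, miR-10-5p, miR-184-5p and miR-263b-3p.

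Lists of miRNAs by tissue or cluster are set beside all 79 tested groups, of which 27.8% were higher and 8.86% lower in listed RPM, and 6.33% higher and 25.3% lower in library RPM, with median ratios of 1.85 in listed RPM and 0.803 in library RPM. The lists are small, several count both arms of a hairpin, and nothing particular to a list is read from its count. In neuron and sense organ, which holds both arms of miR-7 and of miR-263b, 1 of 12 groups was higher and 2 lower in listed RPM (median 1.27), and 0 higher and 5 lower in library RPM (0.550). Within it miR-7 (1.38, 1.23 to 1.56), miR-87 (1.38, 1.30 to 1.47), miR-190-5p (1.82, 1.63 to 2.03), miR-137-3p (1.31, 0.957 to 1.78) and miR-153 (1.28, 0.759 to 2.11) had no call on either scale. The 4 groups of the Hox cluster list are the arms of 2 hairpins, miR-10 and miR-993. Of these 0 were higher and 1 lower in listed RPM (median 0.607), and all 4 were lower in library RPM (0.264), against 40.8% of the 49 groups outside the let-7 and vertebrate-type classes. The read ratio of miR-10-3p to miR-993-5p was 2.54 in the adult and 6.35 in the larva. Among growth and metabolism groups 2 of 5 were higher and 1 lower in listed RPM (median 2.28), and 1 and 1 in library RPM (0.992). Both groups of the list named for the miR-34 cluster were higher in listed RPM (median 4.73), and 1 of 2 in library RPM (2.06).

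The smaller lists gave these counts. The miR-92/25/310 family had 0 of 3 groups higher and 1 lower in listed RPM (median 0.537), and 0 and 2 in library RPM (0.233). The other tested member, miR-25, had 28 adult and 21 larva reads, with ratios of 3.08 (1.69 to 5.70) in listed RPM and 1.34 (0.733 to 2.48) in library RPM, and was not called. The miR-71/miR-2/miR-13 list had 0 calls among 3 groups in listed RPM (median 0.669) and 2 lower in library RPM (0.291), both of them arms of miR-71. In it miR-2b-3p, whose family represses cell death genes, had ratios of 1.08 (0.998 to 1.18) and 0.471 (0.434 to 0.511). The germline-linked list came down to miR-184, since its 3 tested groups were miR-184, the opposite arm miR-184-5p and miR-184d-3p, which has the seed of miR-184. Of these 1 was lower in listed RPM (median 0.481) and 2 in library RPM (0.209). Muscle had 1 of 2 higher in listed RPM (median 1.71) and 1 of 2 lower in library RPM (0.746). The single tested groups of the miR-12 and miR-750/miR-1175 lists were higher in listed RPM, and miR-1175b-3p was higher on both scales. In the list of miR-309 and its seed relatives miR-279-3p was the single tested group, and both miR-9/79 groups, miR-9a-3p (0.992, 0.843 to 1.16) and miR-9-5p (1.52, 1.20 to 1.91), were uncalled. Of 8 other conserved groups, 3 were higher and 1 lower in listed RPM (median 2.32), and 2 and 2 in library RPM (1.01). The let-7 complex list held let-7 names alone, with 4 of 8 higher in listed RPM (median 2.39) and 0 of 8 in library RPM (1.04).

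The nymph library, a pool of protonymphs and deutonymphs, stands between larva and adult in the life cycle and held the highest level of several groups. Of the 12 groups that differed on both scales, miR-8-3p and miR-252-5p had nymph levels between those of larva and adult on both scales, at 349.7 library RPM of miR-8-3p and 636.7 of miR-252-5p in the nymph. miR-317, miR-1175b-3p and miR-745-3p lay between in listed RPM, but in library RPM their nymph values of 2458, 21.2 and 9.76 stood above the adult values of 2236, 16.4 and 5.24. miR-92-3p, miR-315, miR-263b, miR-10-3p and miR-184 had nymph levels between larva and adult on both scales. miR-263-5p and miR-278-3p were highest in the nymph on both, with 1657 library RPM of miR-263-5p in the nymph, 155.1 in the adult and 1051 in the larva. Among groups not called on both scales, miR-133 had 552.8 library RPM in the nymph, 94.6 in the adult and 87.4 in the larva. miR-87, which acts in dendrite regrowth, had 1708 library RPM in the nymph, 272.0 in the adult and 453.5 in the larva.

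**Figure D4:**
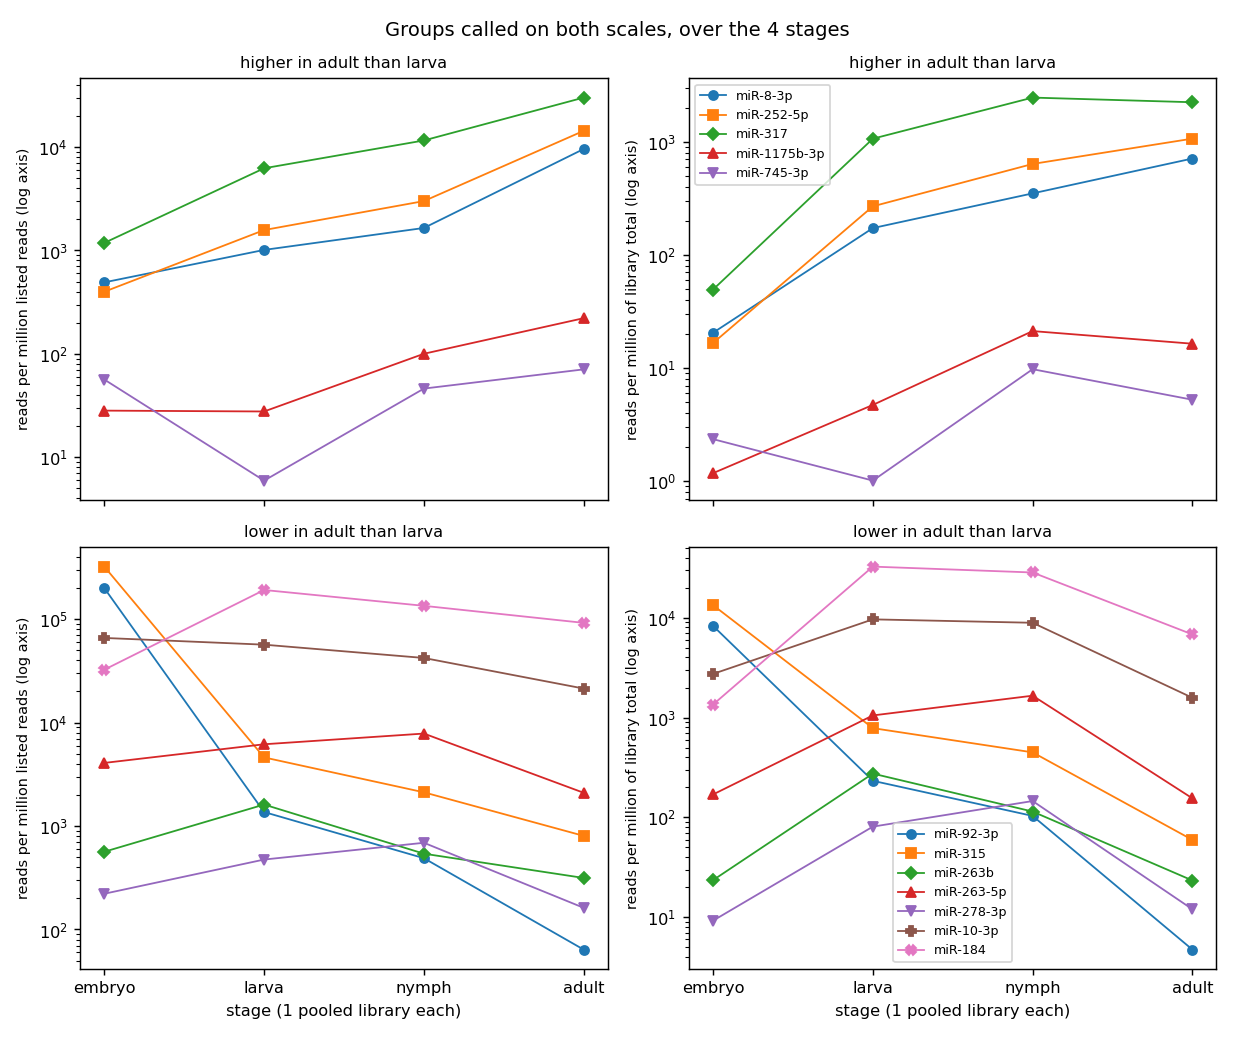
Levels of the 12 groups that differed between adult and larva on both scales, in embryo, larva, nymph and adult libraries (1 pooled library each), as reads per 1000000 listed reads (left) and per 1000000 of the library total (right), on log axes. miR-92-3p and miR-315 fall at every step, while miR-263-5p and miR-278-3p are highest in the nymph.

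The names the authors listed overlapped only in part. Both libraries listed 157 names, 58.1% of adult and 57.5% of larva names, and 113 names were listed in the adult alone and 116 in the larva alone. Of these, 62 and 64 belonged to sequence groups listed in both libraries. By sequence group 173 were shared, 77.2% of adult and 76.9% of larva groups, and no group found in a single library had more than 5 reads. The leading variant differed between the libraries in 13 of 79 groups, and in 4 of these the variants started at different bases. In all 13 the leading variant of the larva had no adult row, and in most that of the adult had no larva row. Whether the animals differed in these forms or the libraries in how names were listed was not tested. miR-281-5p, for example, was listed with 23 nucleotides in the adult (1008 reads) and 21 in the larva (580 reads), miR-190-5p with 20 in the adult (600 reads) and 23 in the larva (761 reads), and miR-305c-5p with 21 in the adult and 22 in the larva.

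Shorter forms of miR-1 and miR-34-5p took a larger share of their groups in the adult. This share does not depend on the scale and used names that start at the same base and were listed in both libraries, which were found in 17 groups. In miR-1, the forms of 19 and 20 nucleotides made up 17.3% of adult reads (17.1 to 17.4) and 11.5% of larva reads (11.4 to 11.6), an odds ratio of 1.60 (1.58 to 1.63). In miR-34-5p, the form of 20 nucleotides made up 21.3% in the adult (21.04 to 21.6) and 14.5% in the larva (14.2 to 14.9), an odds ratio of 1.59 (1.54 to 1.65). The difference was slight in miR-184, with 10.04% in the adult and 9.36% in the larva, and miR-7 had 18 of 431 adult reads and 11 of 719 larva reads in its shorter form. miR-87 had 30.4% in the adult and 13.4% in the larva (odds ratio 2.82, 2.38 to 3.33), but with the 588 larva reads of its 21-nucleotide name, which has no adult row, counted as short the larva share was 32.3% and the odds ratio 0.913 (0.797 to 1.05). The intervals of the other 12 groups covered 1, among them bantam, miR-317, miR-124-3p and all 5 let-7 and vertebrate-type groups. For miR-124-3p, short meant below its leading name of 21 nucleotides. Its 22-nucleotide name, miR-124, held 75.7% of adult and 71.6% of larva reads. Forms below 22 nucleotides thus had a smaller share in the adult. In the nymph the short share was 15.3% for miR-1 and 18.2% for miR-34-5p.

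**Figure D5:**
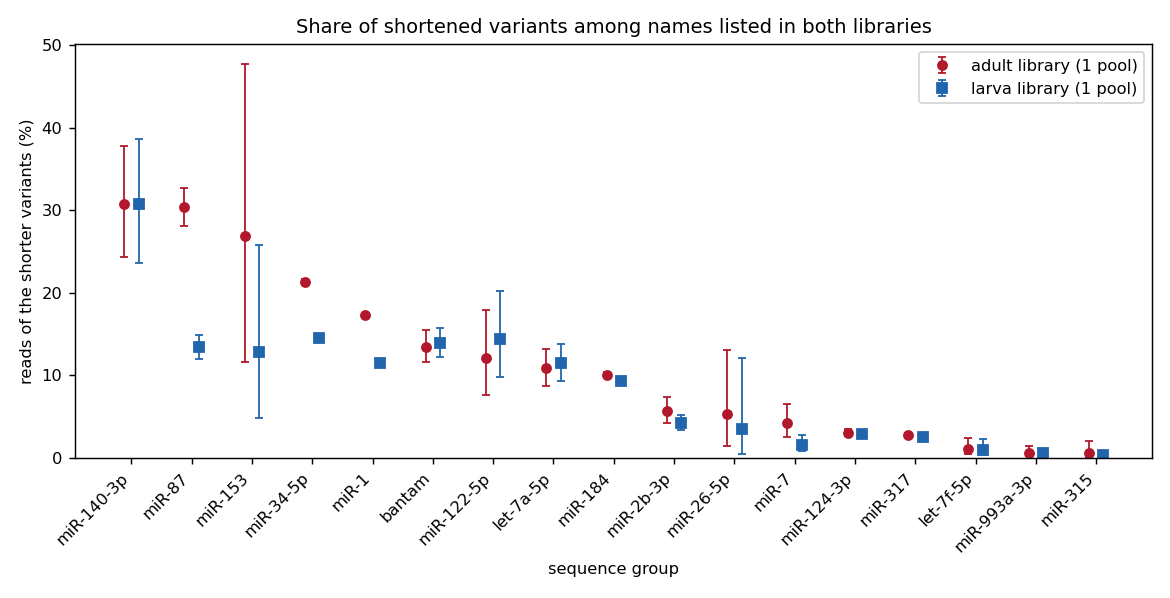
Share of reads in variants shorter than the leading name, in percent with 95% counting intervals, for the 17 groups with such variants listed in both libraries, adult left of larva. miR-1 and miR-34-5p stand higher in the adult, at 17.3% in the adult and 11.5% in the larva for miR-1, and 21.3% in the adult and 14.5% in the larva for miR-34-5p.

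No change beyond 2-fold was called in the balance of the arms of a hairpin. Of 9 hairpins with at least 30 reads on each arm over both libraries, 0 had an odds ratio of the 5p over the 3p arm whose interval lay beyond 2-fold. miR-71 had 69.6% 5p reads in the adult (68.5 to 70.6) and 65.8% in the larva (65.2 to 66.4), miR-993 had 79.5% in the adult and 76.9% in the larva, and miR-305 had 54.8% in the adult (49.7 to 59.9) and 44.1% in the larva (38.6 to 49.8). miR-9 had 36.4% 5p reads in the adult (31.3 to 41.7) and 27.3% in the larva (24.0 to 30.7), an odds ratio of 1.53 (1.15 to 2.03). For miR-71, miR-993, miR-305 and miR-9 the interval of the odds ratio lay above 1, toward the 5p arm in the adult. For miR-10, miR-5735, miR-7, miR-184 and miR-263b the interval covered 1. The intervals of miR-184 (0.116 to 1.23) and miR-263b (0.352 to 5.77) were too wide to exclude a change beyond 2-fold. Those of miR-305 (1.13 to 2.10) and miR-9 (1.15 to 2.03) also reached just past 2-fold. The 5p reads of miR-305 were listed under different names in the 2 libraries. The read ratio of miR-71a-5p to miR-2b-3p was 6.0 in the adult and 9.72 in the larva. That of the miR-263b group to the miR-263-5p group was 0.150 in the adult and 0.261 in the larva. The larva value rests on 1098 reads of miR-263d-5p, which had no adult row. The name miR-263b alone had 138 adult and 534 larva reads, against 918 and 6231 of the name miR-263-5p. With these names the ratio was lower in the larva, so its direction depends on that variant.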

How the data were processed

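Small RNAs of whole mites were sequenced from 1 pooled library per stage, and per the labels' protocols they were cut from a 15% gel, ligated to adapters and amplified. The authors deposited a read count per known miRNA name with a sequence and a normalized value. Their deposited second value is in RPM, reads per 1000000 of a library total, which was found by dividing each count by it. The labels and files used here do not say which reads that total holds, nor name an aligner, a miRNA database or a build. No genome position of a miRNA was used.

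Names were joined by family number and a mismatch-free overlap of 17 or more bases with a more abundant name, which turned 594 names into 366 sequence groups. Ratios have exact conditional binomial (Clopper-Pearson) 95% intervals, and a call needs at least 30 reads over both libraries and an interval wholly beyond 2-fold. Ratios of variants, arms or related groups within a library are given as exact conditional odds ratios. TMM factors came from edgeR 4.0.16 in R 4.3.3, and other values from Python 3.11.15 with scipy 1.17.1. The interval and the call were tested on simulated counts that held counting error alone. That test therefore says nothing of PCR copies, variation between pools or names without a row.

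Named groups are the 10 largest and 10 smallest ratios among called groups, the 10 most abundant of each library, all tested groups of the lists, groups whose arm balance lies beyond 2-fold, of which there were 0, and groups whose leading variant differs. let-7 and vertebrate-type names, and other names without a known role, are described as classes or by value. The comparison, the lists, the related pairs and the families named vertebrate-type were chosen with earlier results of these data known, and the measure of short variants within a group was chosen after the values were seen.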

Additional observations from a re-analysis of the deposited data

How the results depend on the processing

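The scale decided how many groups were called. In listed RPM 22 groups were higher in the adult and 7 lower, against 5 and 20 with the library totals, 7 and 16 with TMM and 6 and 19 with median-of-ratios scaling. Without joining variants, which tests 100 names in place of 79 groups, 29 were higher and 15 lower in listed RPM, and 12 and 31 with the library totals. A 1.5-fold threshold gave 32 higher and 11 lower groups, and a 3-fold threshold 8 and 3. Other overlaps, read minimums, totals without miR-1 or without let-7 and vertebrate-type names, joining by first base, and names listed in both libraries only left both counts within 1.5 times. Of the named groups, 0 called ratios changed direction. miR-263b lost its call in listed RPM with the leading name alone or with names listed in both libraries only (0.597). In the same settings miR-12 moved to 8.37, and miR-252-5p moved to 4.62 with names listed in both libraries only. With the leading name alone and the library totals, an alternative added after seeing the data, miR-12 was called higher (3.64). With all names counted, also added then, the short-form odds ratio of miR-87 turned to 0.913. Groups whose names have no row in 1 of the libraries have no value in those settings. No paired analysis was possible because each stage has 1 library. Depth limits rare groups, such as miR-745-3p with 6 larva reads.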
